A study of Mus musculus with 27 samples.

Results

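The 35 genes described here copy DNA or carry cells from the G1 phase of the cell cycle into S phase, and they were chosen by name with earlier results of these data known. All 35 were found among the 40129 genes of the mouse retina table, and all 35 passed the filter on low values (a mean of at least 1 normalized read). By role, they comprised 3 genes of origin licensing, 6 subunits of the MCM helicase, 6 genes of helicase activation, 9 genes of the replication fork, 4 genes of nucleotide supply, 4 regulators of the G1/S step and 3 genes of chromatin assembly on new DNA. The study compared retinas of the oxygen-induced retinopathy (OIR) model with controls, in wildtype C57BL/6 pups (C57BL/6J in the study's methods). OIR pups spent several days in raised oxygen, which closes central retinal vessels, and were then returned to room air, whereas nOIR pups stayed in room air throughout. Retinas were taken on postnatal day 14 (p14), when the OIR retina is hypoxic and largely without new vessels, or on day 17 (p17), when neovascularization peaks. There was 1 library per mouse, made from whole retina, and the comparisons used 6 nOIR and 6 OIR mice of p14, and 6 nOIR and 8 OIR mice of p17. The nOIR p14 mouse S4 was left out, as in the study. No mouse carried a transgene or deletion, and groups of an age differ in their labels by oxygen history. The litter of a mouse was not known here. By the study's account each group held more mice than litters, so some mice of a group shared a litter, whereas p-values take mice as independent.

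Values are normalized reads, that is, reads per gene divided by the size factor of the mouse. Each mouse gave between 17029536 and 33593428 reads in genes, and the reads behind a gene of the list, summed over 26 mice, ranged from 480 for Cdc6 to 32452 for Rrm1. The retina's own cells were present in every mouse, with the summed level of 5 rod genes never below 841209 normalized reads. RNA of the lens was uneven between mice, since Cryaa, a lens crystallin gene, ranged from 0 to 12404 normalized reads, and 4 mice used in the comparisons exceeded 5000 (nOIR p14 mouse S5 and OIR p17 mice S2, S7 and S8). Whole retina mixes many cell types, so that fewer cells of a type and less RNA per cell cannot be told apart in any value given here.

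Replication starts when the origin recognition complex, CDC6 and CDT1 load the ring-shaped MCM helicase onto DNA in G1, and it fires when CDC45 and the GINS complex join the ring in S phase. PCNA, which the RFC clamp loader places around DNA, then tethers polymerases, FEN1 and LIG1 to the fork, while ribonucleotide reductase, TYMS and TK1 supply the nucleotides. Many of these genes are transcribed in a burst before S phase by E2F factors, which cyclin E and its kinase help to free from the retinoblastoma protein. Most neurons of the mouse retina have left the cell cycle by the second week after birth, whereas endothelial cells, pericytes and microglia can still divide.

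Promoter sequences are shown because many genes of the list share a regulatory motif that was not used to choose them. RefSeq windows on GRCm38.p6, each running from 250 bases before to 50 bases after a start site, were at hand for 29 of the 35 genes. The motif searched was the E2F type, in the forms TTTCCCGC, TTTCGCGC, TTTGCCGC and TTTGGCGC on both strands. It was found in 14 of 29 genes (48.3%), against 704 of 27025 genes in all (2.6%). Among genes of the list that were higher in OIR mice at p17, 9 of 14 held it, and among the others 5 of 15. The CCAAT box (CCAAT) was found in 62.1% of the listed genes and 41.1% of all genes, and the CHR element (TTTGAA or TTCGAA) in 24.1% and 21.7%. Matches on opposite strands can overlap, and a CCAAT match can share a base with an E2F match. A match describes these letters only and was not tested as a binding site. Capitals mark the E2F-type matches in the windows below, which belong to the 5 genes with the highest fold changes at p17 and to Mcm7, which was called at neither age. All windows read 5′ to 3′ on the strand of the gene, and match positions count the first transcribed base as 0. The window of Cdc6 is chr11:98907901-98908200, plus strand, with 1 match at position -138. That of Mcm3 is chr1:20820263-20820562, minus strand, with matches at 19 and 38, and the window shown for Mcm7 is chr5:138171834-138172133, minus strand, with matches at -165 and 16. Mcm7 has a second window, chr5:138171217-138171516, with 0 matches. Uhrf1 also has 2 windows, and the one shown, chr17:56304063-56304362 on the plus strand, holds 1 match at -185. No E2F-type letters lay in the windows of Rrm2 (chr12:24708004-24708303, plus strand) and Chaf1b (chr16:93883651-93883950, plus strand).
Cdc6: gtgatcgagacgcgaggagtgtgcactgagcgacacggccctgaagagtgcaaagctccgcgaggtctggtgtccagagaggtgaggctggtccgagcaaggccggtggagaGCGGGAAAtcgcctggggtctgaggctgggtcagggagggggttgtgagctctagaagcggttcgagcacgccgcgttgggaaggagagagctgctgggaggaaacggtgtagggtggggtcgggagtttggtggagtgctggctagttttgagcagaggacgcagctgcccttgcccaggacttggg
Mcm3: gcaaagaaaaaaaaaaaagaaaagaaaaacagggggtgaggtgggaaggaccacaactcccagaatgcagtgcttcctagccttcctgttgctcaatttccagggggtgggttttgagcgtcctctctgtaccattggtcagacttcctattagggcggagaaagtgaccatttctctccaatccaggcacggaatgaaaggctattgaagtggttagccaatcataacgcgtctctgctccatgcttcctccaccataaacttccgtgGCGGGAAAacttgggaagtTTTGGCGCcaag
Mcm7: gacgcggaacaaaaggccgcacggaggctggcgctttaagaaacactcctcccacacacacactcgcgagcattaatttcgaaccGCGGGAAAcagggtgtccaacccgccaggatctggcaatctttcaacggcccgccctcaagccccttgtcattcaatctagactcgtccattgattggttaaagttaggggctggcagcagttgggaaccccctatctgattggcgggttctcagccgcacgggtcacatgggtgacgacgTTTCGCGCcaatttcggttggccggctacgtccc
Uhrf1: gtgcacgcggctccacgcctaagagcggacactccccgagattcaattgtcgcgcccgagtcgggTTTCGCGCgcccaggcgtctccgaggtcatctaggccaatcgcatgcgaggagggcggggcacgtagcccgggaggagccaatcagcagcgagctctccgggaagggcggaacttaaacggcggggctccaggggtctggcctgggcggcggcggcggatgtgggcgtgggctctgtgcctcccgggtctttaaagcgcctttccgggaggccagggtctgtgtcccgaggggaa
Rrm2: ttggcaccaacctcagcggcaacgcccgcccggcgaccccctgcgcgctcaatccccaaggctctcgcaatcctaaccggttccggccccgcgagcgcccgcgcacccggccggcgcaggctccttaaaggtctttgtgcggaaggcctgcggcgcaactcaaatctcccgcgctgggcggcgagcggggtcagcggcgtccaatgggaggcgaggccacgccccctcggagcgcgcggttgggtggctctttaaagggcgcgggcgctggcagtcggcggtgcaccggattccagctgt
Chaf1b: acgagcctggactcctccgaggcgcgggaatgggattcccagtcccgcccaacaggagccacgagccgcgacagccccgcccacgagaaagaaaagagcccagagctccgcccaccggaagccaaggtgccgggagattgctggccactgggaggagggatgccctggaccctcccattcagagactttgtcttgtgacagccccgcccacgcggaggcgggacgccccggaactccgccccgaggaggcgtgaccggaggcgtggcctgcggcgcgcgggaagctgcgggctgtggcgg

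At p14, 11 of the 35 genes were higher in OIR than in nOIR mice and 0 were lower, by limma with an adjusted p (Benjamini-Hochberg over all 27137 genes tested) under 0.05. Of all genes tested, 3.18% were called higher and 2.91% lower in that comparison. The 11 genes were Cdt1, Mcm3, Mcm5, Mcm6, Gins2, Rfc5, Pclaf, Rrm2, E2f1, Uhrf1 and Chaf1b, and with DESeq2 or edgeR on the recovered reads the count was again 11 higher and 0 lower. At p17, 17 of the 35 were higher, against 7.39% of all genes, and only Ccne1 was lower, against 5.12%. Log2 fold changes (log2FC, with standard errors, SE) were above 0 for 28 of the 35 genes at p14 and for 33 at p17. Their median was 0.32 at p14 and 0.41 at p17, where the median of all genes tested was 0.02 and -0.02. By the study's threshold for differentially expressed genes (DEG; log2FC over 2 with an adjusted p under 0.05), 2 of the genes were upregulated at p14, Uhrf1 and Chaf1b, against 0.744% of all genes. At p17 they numbered 5, namely Cdc6, Mcm3, Rrm2, Uhrf1 and Chaf1b, against 1.9%. Every OIR mouse lay above every nOIR mouse of its age for 7 of the 35 genes at p14 (1.91% of all genes) and for 12 at p17 (3.9%). Without the 4 mice above 5000 reads of Cryaa, an alternative chosen after seeing the data, 10 genes were higher at p14 and 13 at p17, where Cdt1, Mcm4, Gins1 and E2f2 then missed the threshold.

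**Figure D1:**
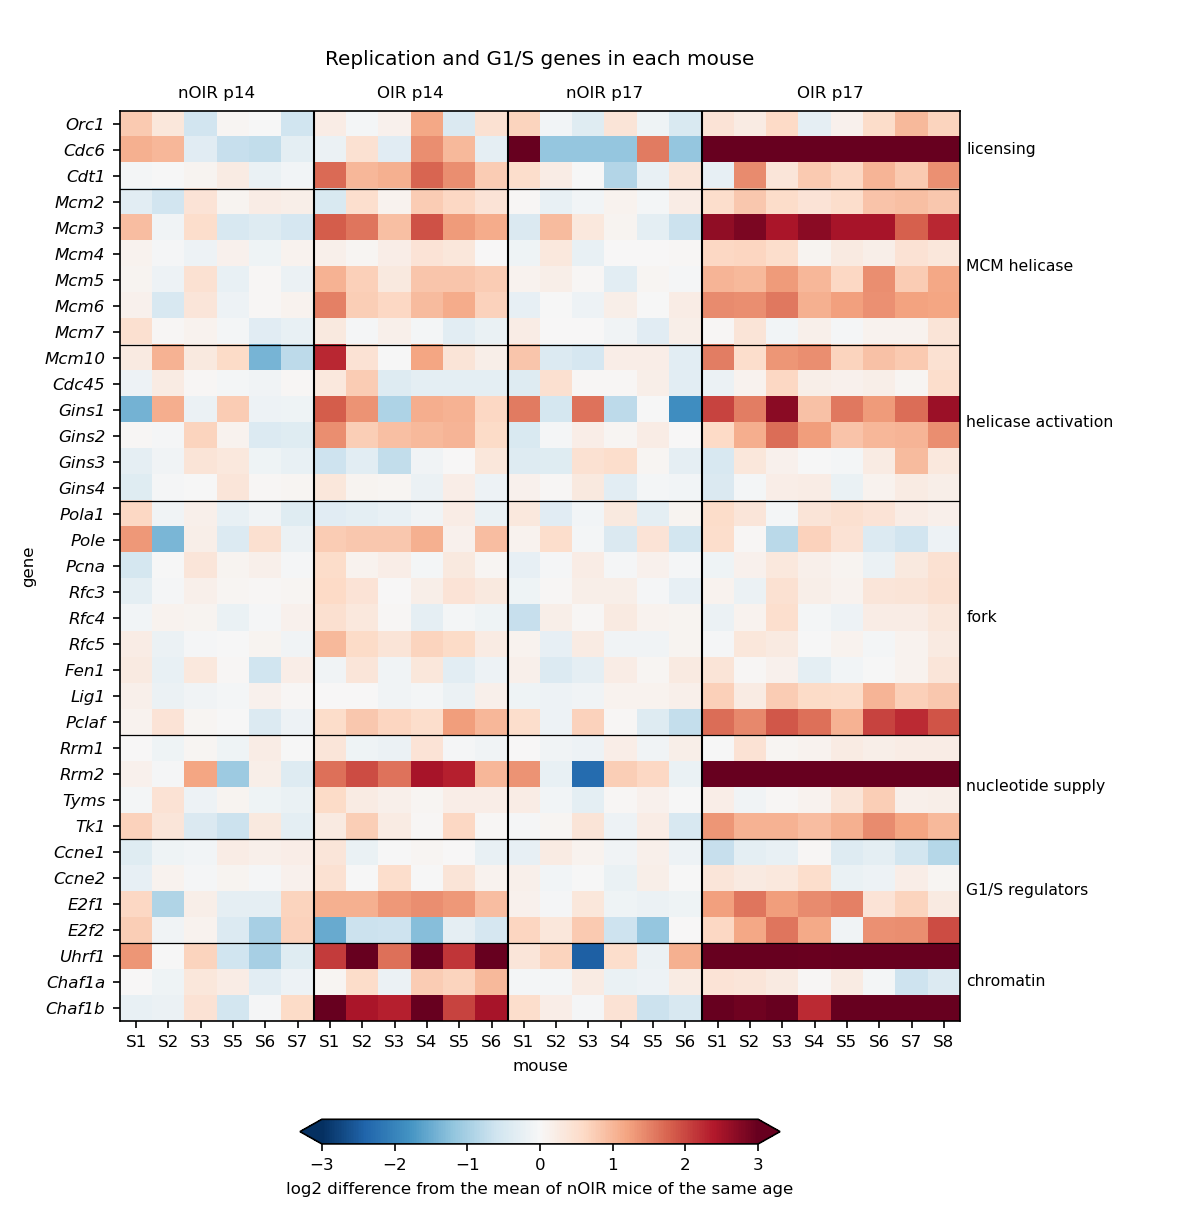
Each row is 1 of the 35 genes, grouped by role, and each column 1 of the 26 mice. Colour gives the difference of log2(normalized reads + 1) from the mean of the nOIR mice of the same age, with colours saturated beyond 3 in either direction. Cdc6 is dark red in all 8 OIR p17 mice and in nOIR p17 mouse S1, and paler or blue in OIR p14 mice, while Chaf1b is red in all OIR mice of both ages.

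Among the 3 licensing genes, Cdc6, whose product brings the helicase to origins together with CDT1, had the largest fold change at p17. Its normalized reads (lowest, median and highest mouse) were 5.09, 7.20 and 20.4 in nOIR p14, 7.06, 10.4 and 25.7 in OIR p14, 0, 0 and 18.0 in nOIR p17 and 21.5, 31.0 and 65.3 in OIR p17. Thus 4 of the 6 nOIR p17 mice had no read of Cdc6, and all 8 OIR p17 mice lay above all nOIR p17 mice, whereas the p14 groups overlapped. The log2FC at p17 was 4.03 (SE 0.55, adjusted p = 3.15e-06; exact permutation p = 0.000333, the smallest that 8 mice against 6 allow). That is a 16.3-fold difference on the fitted scale, while the ratio of the group means was 9.68. At p14 the log2FC was 0.34 (SE 0.59, adjusted p = 0.867). Cdt1, which escorts the MCM ring to the origin, had 56.0, 62.6 and 76.2 normalized reads in nOIR p14, 109, 153 and 216 in OIR p14, 41.9, 83.8 and 112 in nOIR p17 and 65.3, 134 and 208 in OIR p17. Every OIR mouse exceeded the controls at p14, with a log2FC of 1.27 (SE 0.25, adjusted p = 0.00123; exact permutation p = 0.0022, the smallest for 6 against 6). At p17 the groups overlapped, and the log2FC was 0.76 (SE 0.23, adjusted p = 0.0272). That call was lost without any 1 of OIR p17 mice S2, S6 or S8 or nOIR p17 mice S4 or S5, with adjusted p from 0.0521 to 0.109. Orc1, the largest subunit of the origin recognition complex, was not called at either age, with log2FC values of 0.25 and 0.41.

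At p17, 5 of the 6 MCM subunit genes rose, but their fold changes ranged widely although their products form 1 ring. Mcm3 was the most changed, with 53.4, 64.2 and 146 normalized reads (lowest, median, highest) in nOIR p14, 142, 209 and 288 in OIR p14, 30.8, 45.9 and 95.2 in nOIR p17 and 173, 274 and 349.6 in OIR p17. At p14 a single nOIR mouse, S1, reached into the OIR range, and at p17 the groups were apart. Its log2FC was 1.44 at p14 (SE 0.26, adjusted p = 0.0006) and 2.45 at p17 (SE 0.25, adjusted p = 1.21e-08). For Mcm6 the values were 252, 373 and 453 in nOIR p14, 543, 635 and 1004 in OIR p14, 281, 330.3 and 387 in nOIR p17 and 699.7, 821 and 999 in OIR p17. No OIR mouse overlapped the controls at either age, and the log2FC was 0.94 at p14 (SE 0.14, adjusted p = 4.62e-05) and 1.31 at p17 (SE 0.13, adjusted p = 1.28e-08). Mcm5 had 160.3, 178 and 254 normalized reads in nOIR p14, 229, 323 and 385 in OIR p14, 110.3, 142 and 154 in nOIR p17 and 213, 276 and 364 in OIR p17, without overlap at p17. Its log2FC was 0.75 at p14 (SE 0.15, adjusted p = 0.00134) and 1.03 at p17 (SE 0.14, adjusted p = 2.16e-06). Mcm2 and Mcm4 were called at p17 alone, with log2FC values of 0.68 (adjusted p = 0.00339) and 0.38 (adjusted p = 0.0098). Mcm7, the only subunit called at neither age, had 453, 567 and 799 normalized reads in nOIR p14, 461, 553 and 699 in OIR p14, 406, 524 and 607 in nOIR p17 and 492, 558 and 677 in OIR p17. Its groups overlapped at both ages, and the log2FC was -0.02 at p14 (95% confidence interval -0.29 to 0.24) and 0.13 at p17 (-0.12 to 0.38).

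The subunits of the ring differed in level as well as in fold change. Levels per kilobase divide by the merged exons of all annotated transcripts, 6956 bases for Mcm2 and 3589 to 4666 for the other subunits. Which transcripts were present was not tested, so order and ratios between subunits depend on these lengths. Per kilobase of exon, the mean level in nOIR p17 mice was 156 normalized reads for Mcm4, 118 for Mcm7, 71.7 for Mcm6, 39.5 for Mcm2, 34.6 for Mcm5 and 14.0 for Mcm3. In OIR p17 mice it was 205 for Mcm4, 178 for Mcm6, 129 for Mcm7, 73.9 for Mcm3, 71.3 for Mcm5 and 63.4 for Mcm2. On these lengths, the highest subunit stood 11.2-fold above the lowest in nOIR p17 mice and 3.23-fold above in OIR p17 mice. These ratios were 7.47 and 3.82 at p14. The lowest was Mcm3 in nOIR mice of both ages, and in OIR mice of both ages Mcm2, with the longest merged exons. In OIR p17 mice, neighbouring levels among Mcm3, Mcm5 and Mcm2 lay within 1 SD of each other. The rise in level per kilobase at p17 was 106 for Mcm6, 59.8 for Mcm3, 48.2 for Mcm4, 36.7 for Mcm5, 23.9 for Mcm2 and 11.1 for Mcm7. Mcm4, with a low fold change, therefore gained more reads per kilobase than Mcm5, whose fold change was higher.

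**Figure D2:**
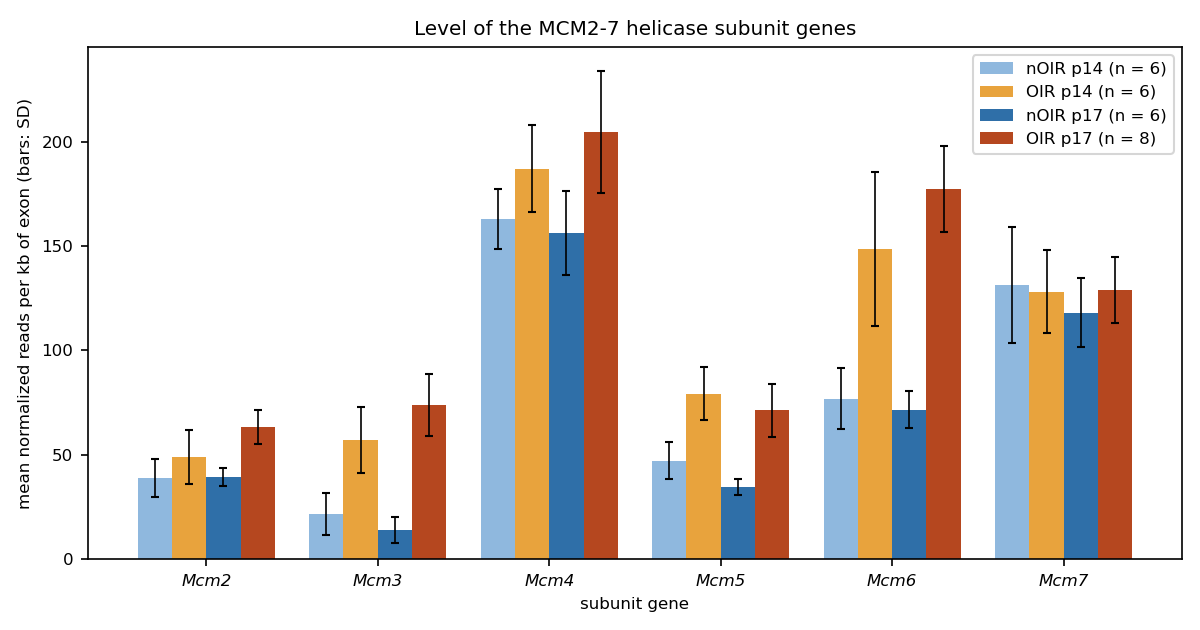
Bars give the mean normalized reads per kilobase of exon for the 6 MCM subunit genes in the 4 groups, and error bars the SD over 6 or 8 mice. Mcm3 goes from 14.0 in nOIR p17 to 73.9 in OIR p17, whereas the 4 bars of Mcm7 lie between 118 and 131.

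Of the 6 genes of helicase activation, Gins1 and Gins2 were called and Gins3, Gins4, Cdc45 and Mcm10 were not. GINS is a complex of 4 subunits that joins CDC45 and the MCM ring into the active helicase. Gins1 had 6.22, 16.5 and 40.2 normalized reads in nOIR p14, 9.08, 39.3 and 67.2 in OIR p14, 2.12, 8.50 and 33.6 in nOIR p17 and 19.8, 33.7 and 73.0 in OIR p17. The groups overlapped at both ages, and the log2FC at p17 was 1.78 (SE 0.49, adjusted p = 0.0126). This call was lost without nOIR p17 mouse S6 (log2FC 1.41, adjusted p = 0.0563) and with edgeR (adjusted p = 0.0577). Gins2 had 43.8, 58.5 and 94.1 in nOIR p14, 87.3, 113 and 156 in OIR p14, 37.9, 54.1 and 61.2 in nOIR p17 and 79.3, 110.3 and 170.1 in OIR p17. At p17 all OIR mice lay above the controls, and the log2FC was 0.93 at p14 (SE 0.20, adjusted p = 0.00388) and 1.11 at p17 (SE 0.19, adjusted p = 8.91e-05). Gins4 had group means of 765 ± 122, 797 ± 109, 733 ± 106 and 751 ± 119 normalized reads (SD; both p14 groups, nOIR first, then both p17 groups). On a merged exon length of 1349 bases, its level per kilobase was the highest of the whole list. Its log2FC was 0.06 at p14 (95% confidence interval -0.20 to 0.33) and 0.03 at p17 (-0.22 to 0.28). Mcm10, which helps to start the loaded helicase, had a log2FC of 0.95 at p17 but missed the threshold (adjusted p = 0.088).

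At the fork, 3 of 9 genes were called at one age or both. Pclaf encodes a small PCNA-binding protein of dividing cells. Its normalized reads were 33.6, 46.1 and 60.3 in nOIR p14, 65.6, 76.1 and 109 in OIR p14, 23.4, 37.4 and 63.4 in nOIR p17 and 81.8, 136 and 188 in OIR p17, and OIR mice lay above all controls at both ages. The log2FC was 0.80 at p14 (SE 0.23, adjusted p = 0.0355) and 1.73 at p17 (SE 0.22, adjusted p = 7.16e-07). The p14 call was lost without any 1 of OIR p14 mice S2, S5 or S6 or nOIR p14 mice S3, S5, S6 or S7, with adjusted p from 0.0523 to 0.10. Lig1, the ligase that joins Okazaki fragments, had 351, 396 and 445 in nOIR p14, 354, 391 and 441 in OIR p14, 298, 331 and 369.7 in nOIR p17 and 389.5, 543 and 671 in OIR p17. Its p14 groups covered the same range, and its p17 groups were apart, with log2FC values of -0.03 (adjusted p = 0.956) and 0.67 (SE 0.10, adjusted p = 1.68e-05). Rfc5, a subunit of the clamp loader, was called at p14 only. It had 350.2, 389.9 and 466 normalized reads in nOIR p14, 472, 589 and 781 in OIR p14, 363, 427 and 513 in nOIR p17 and 415, 463 and 546 in OIR p17. All OIR p14 mice exceeded their controls, and the log2FC was 0.57 at p14 (SE 0.12, adjusted p = 0.00203) and 0.13 at p17 (adjusted p = 0.552). Pcna, the clamp itself, had group means of 1169 ± 223, 1325 ± 201, 1113 ± 121 and 1234 ± 187 (SD) in the same order of groups. It was not called, with log2FC values of 0.19 at p14 (95% confidence interval -0.07 to 0.45) and 0.14 at p17 (-0.10 to 0.39). Fen1, which trims Okazaki fragments, had a log2FC of 0.08 at p17 (-0.31 to 0.47), and Rfc3, Rfc4 and the polymerase genes Pola1 and Pole were not called at either age either.

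In nucleotide supply, the 2 subunits of ribonucleotide reductase differed. Rrm2, the small subunit whose level follows S phase, had 10.5, 24.3 and 54.6 normalized reads in nOIR p14, 47.8, 84.8 and 134 in OIR p14, 1.92, 16.5 and 36.1 in nOIR p17 and 133, 188 and 286 in OIR p17. At p14 only nOIR mouse S3 reached into the OIR range, and at p17 the lowest OIR mouse was well above the highest control. The log2FC was 1.84 at p14 (SE 0.42, adjusted p = 0.00544) and 3.69 at p17 (SE 0.39, adjusted p = 3.41e-08). Rrm1, the large subunit, had group means of 1130.0 ± 106, 1186 ± 226, 1177 ± 127 and 1332 ± 128 (SD). It was not called, with a log2FC of 0.18 at p17 (95% confidence interval -0.02 to 0.38). In reads, the difference between OIR and nOIR means at p17 was 173 for Rrm2 and 155 for Rrm1. Per kilobase of merged exon it was 62.5 and 14.1, a contrast that depends on annotated lengths of 2771 and 11012 bases. Tk1, thymidine kinase of the salvage pathway, had 52.6, 84.4 and 134 in nOIR p14, 84.8, 98.4 and 137 in OIR p14, 56.3, 79.7 and 103 in nOIR p17 and 152, 164 and 214 in OIR p17. Its groups overlapped at p14 and were apart at p17, where the log2FC was 1.12 (SE 0.19, adjusted p = 7.6e-05). Tyms, which makes thymidylate from deoxyuridylate, was not called (log2FC values of 0.24 and 0.21).

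**Figure D3:**
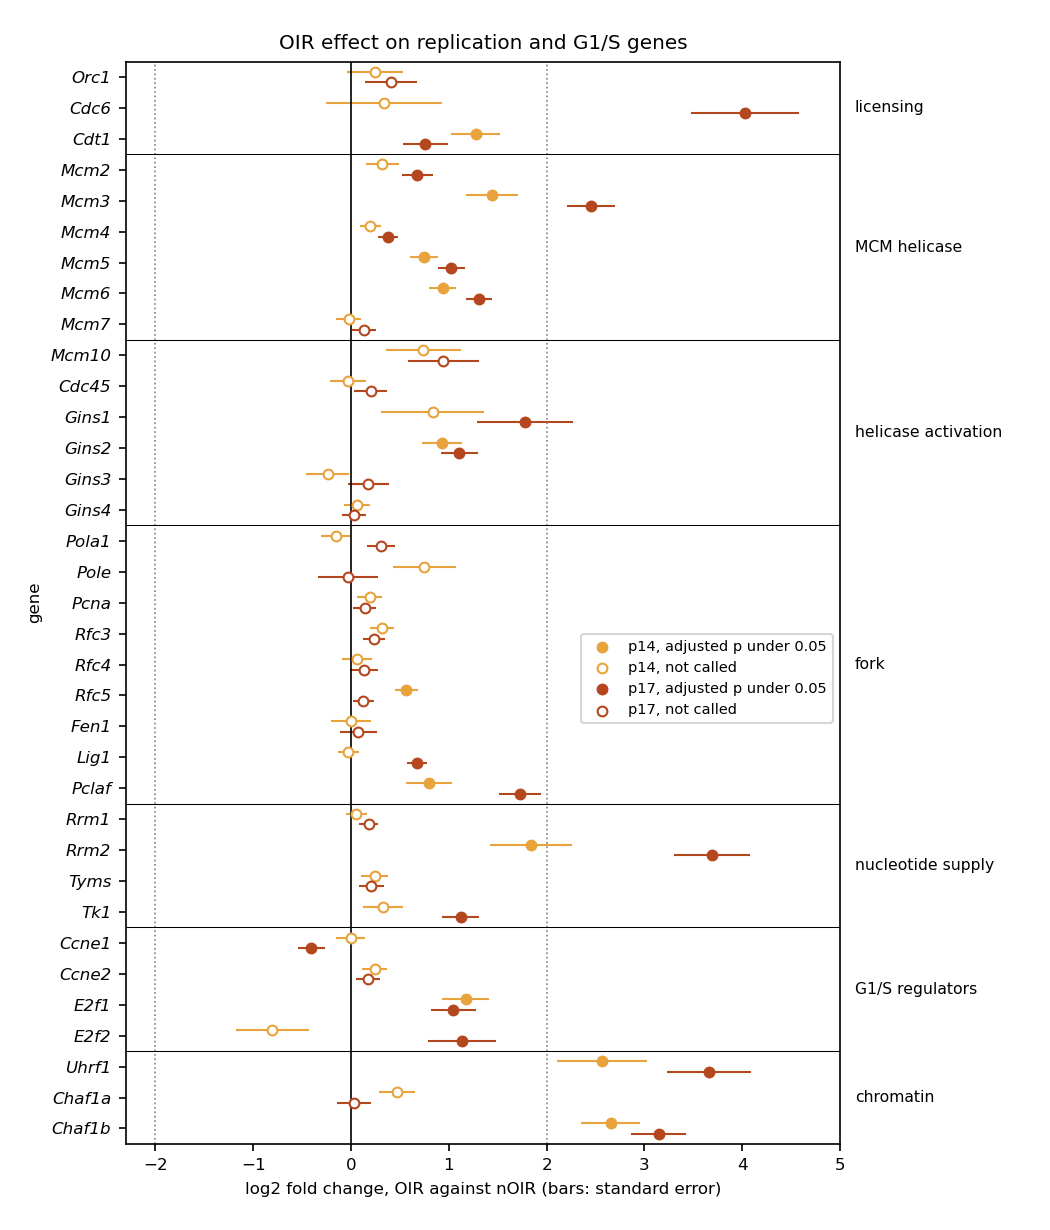
Points give the log2FC of OIR against nOIR mice for each gene at p14 and p17, bars its standard error (SE), and filled points an adjusted p under 0.05. Rrm2 lies at 3.69 at p17 beside Rrm1 at 0.18, and Mcm3 at 2.45 beside Mcm7 at 0.13.

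Of the 4 regulators of the G1/S step, E2f1 was called higher at both ages, E2f2 was higher and Ccne1 lower at p17, and Ccne2 was called at neither age. E2f1, an activator of replication genes, had 44.8, 82.1 and 134 normalized reads in nOIR p14, 161, 193 and 222 in OIR p14, 64.9, 69.9 and 94.1 in nOIR p17 and 88.6, 177 and 228 in OIR p17. OIR mice lay above all controls at p14, and all but 1 did so at p17. Its log2FC was 1.17 at p14 (SE 0.24, adjusted p = 0.00226) and 1.05 at p17 (SE 0.23, adjusted p = 0.00151). E2f2, a second activator, had 18.3, 37.6 and 63.9 in nOIR p14, 12.5, 23.9 and 31.4 in OIR p14, 6.49, 18.2 and 27.8 in nOIR p17 and 14.5, 39.2 and 64.4 in OIR p17. The fold change had opposite signs at the 2 ages, -0.80 on the log2 scale at p14 (SE 0.37, adjusted p = 0.261) and 1.14 at p17 (SE 0.35, adjusted p = 0.0275). The p17 call was lost without any 1 of OIR p17 mice S3 or S8 or nOIR p17 mice S4 or S5, with adjusted p from 0.0518 to 0.101. Ccne1, a cyclin E gene, was the only gene of the list called lower. It had 187, 249.7 and 286 normalized reads in nOIR p14, 208, 243 and 311 in OIR p14, 233, 277 and 325 in nOIR p17 and 152, 219 and 283 in OIR p17. The p17 groups overlapped, and the log2FC of -0.41 (SE 0.14) stood at the edge of the threshold, with an adjusted p of 0.0495. Without 1 mouse it was lost for 21 of the 26 mice, with adjusted p from 0.0514 to 0.126, and it was lost with edgeR (adjusted p = 0.0559). Ccne2, the other cyclin E gene, was not called (0.24 at p14 and 0.18 at p17).

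Chromatin genes held the most changed members at p14. UHRF1 carries DNA methylation over to the new strand, and Uhrf1 had 5.09, 9.67 and 29.3 normalized reads in nOIR p14, 37.3, 77.6 and 111 in OIR p14, 0.96, 13.5 and 21.2 in nOIR p17 and 81.4, 148 and 209 in OIR p17. Chaf1b, the middle subunit of chromatin assembly factor 1, had 6.13, 8.69 and 14.7 in nOIR p14, 41.9, 56.3 and 125 in OIR p14, 4.64, 8.38 and 11.7 in nOIR p17 and 40.7, 80.5 and 104 in OIR p17. For both genes all OIR mice lay above all controls at both ages. The log2FC of Uhrf1 was 2.57 at p14 (SE 0.46, adjusted p = 0.000451) and 3.66 at p17 (SE 0.43, adjusted p = 2.19e-07). That of Chaf1b was 2.66 (SE 0.30, adjusted p = 5.61e-07) and 3.15 (SE 0.28, adjusted p = 1.38e-09), and its adjusted p was the smallest of the list at both ages. The partner subunit Chaf1a, at 271 ± 48.1 normalized reads in nOIR p14 and 386 ± 108 in OIR p14 (SD), was not called, with a log2FC of 0.47 at p14 (95% confidence interval 0.09 to 0.85, adjusted p = 0.16) and 0.03 at p17 (-0.33 to 0.39).

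**Figure D4:**
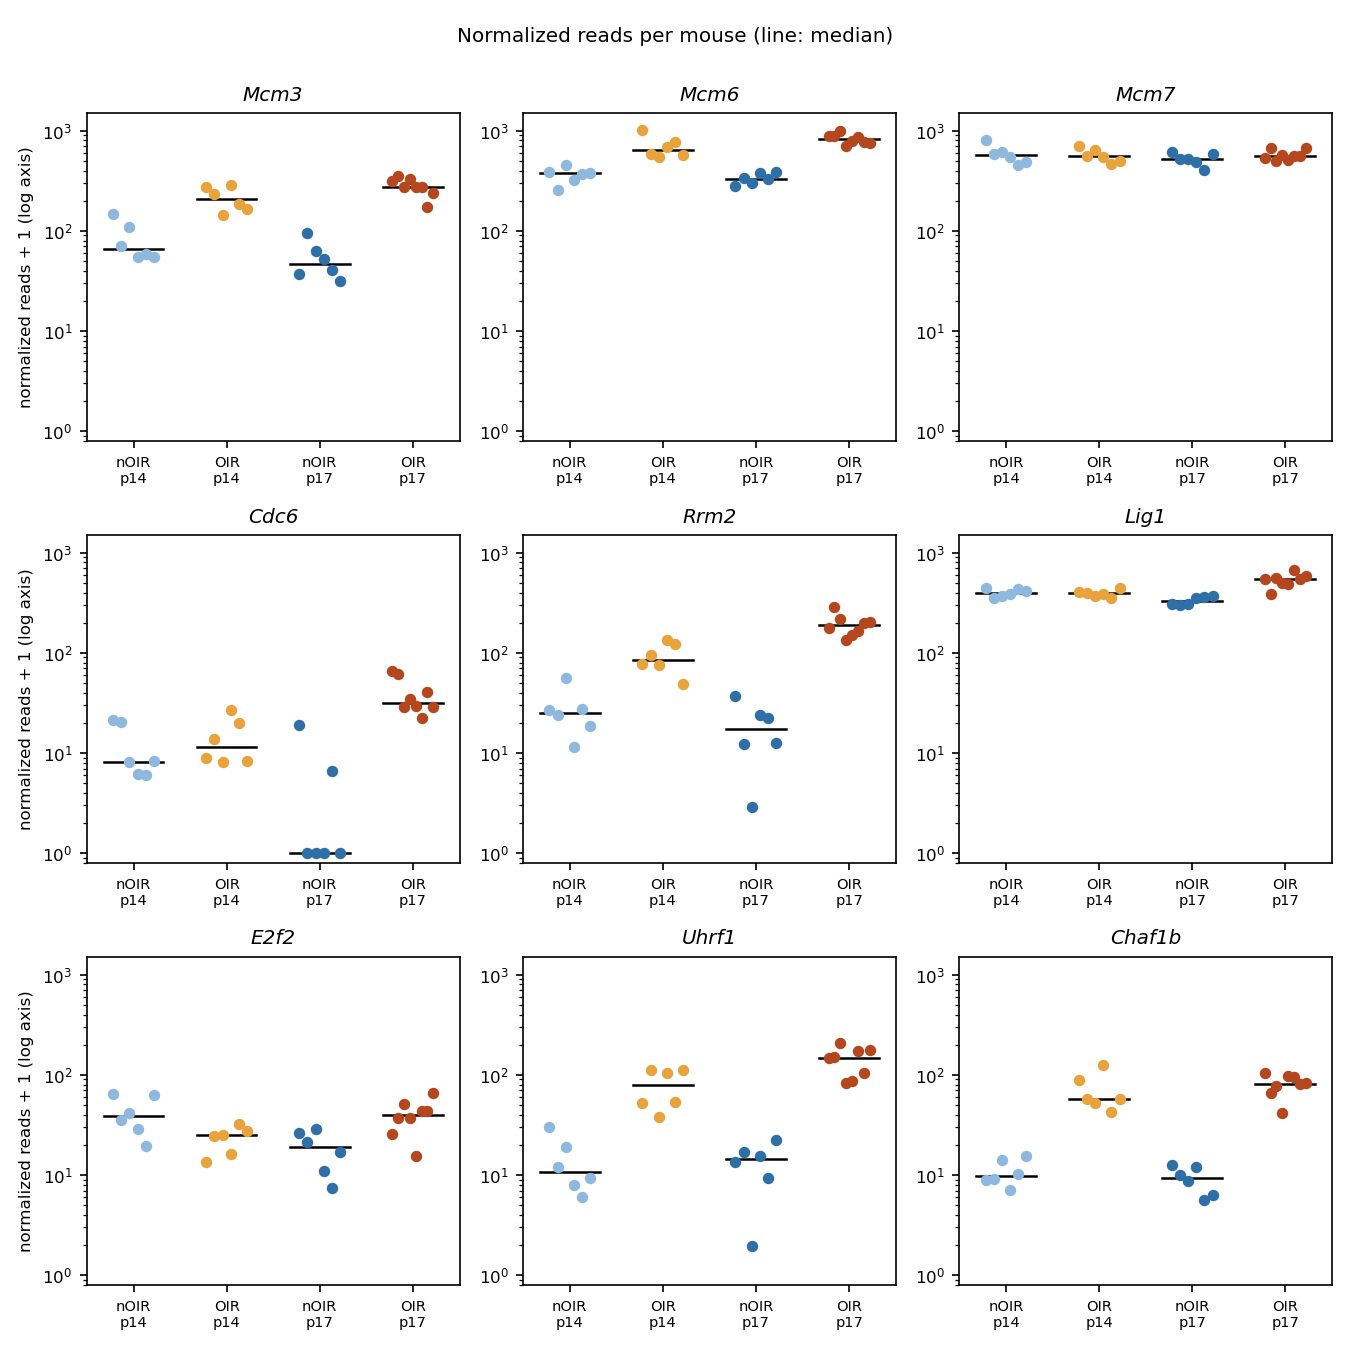
Points give normalized reads plus 1 of single mice on a log axis for 9 genes in the 4 groups, and lines the group medians. Cdc6 and Lig1 separate OIR from nOIR mice at p17 only, Uhrf1 and Chaf1b at both ages, and Mcm7 at neither.

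Of the genes called higher, 10 were called at both ages, Rfc5 at p14 only and 7 at p17 only (Cdc6, E2f2, Gins1, Lig1, Mcm2, Mcm4 and Tk1). Of all genes tested, 2.3% were called higher at both ages, 0.877% at p14 only and 5.09% at p17 only. A call at 1 age and not at the other does not show a difference, so the OIR effect at p17 minus that at p14 was tested in the same fit. It was above 0 for 24 of the 35 genes, and 3 of them passed the threshold, against 1.43% of all genes. These were Cdc6, with a difference of 3.69 on the log2 scale (SE 0.81, adjusted p = 0.0108), Lig1, with 0.70 (SE 0.15, adjusted p = 0.00952), and E2f2, with 1.94 (SE 0.51, adjusted p = 0.0465). Only that of Lig1 held under every alternative tried. The difference of E2f2 was lost for 20 of the 26 mice when 1 mouse was left out (adjusted p from 0.0519 to 0.0973), and that of Cdc6 was lost with edgeR (2.86, adjusted p = 0.155). For Rfc5 the difference was -0.44 (95% confidence interval -0.77 to -0.11, adjusted p = 0.235). Of the remaining genes, Rrm2, Mcm3, Pclaf and Tk1 had differences of 1.85, 1.01, 0.93 and 0.80 that did not pass.

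Ages were then compared within a treatment. None of the 35 genes was called between nOIR p17 and nOIR p14 mice by limma, DESeq2 or edgeR, where 0.317% of all genes were, and 5 had an unadjusted p under 0.05, all of them lower at p17. These were Cdc6, with a log2FC of -2.19 (adjusted p = 0.134), E2f2, with -1.21 (adjusted p = 0.226), Mcm3, with -0.62 (adjusted p = 0.554), Mcm5, with -0.44 and no overlap between the groups (adjusted p = 0.317), and Lig1, with -0.26 (adjusted p = 0.55). None of these passed. Cdc6 had a log2FC of 1.51 between OIR p17 and OIR p14 mice (adjusted p = 0.117). On the fitted log2 scale, the larger share of its difference of 3.69 between ages thus lay in the nOIR mice. In normalized reads the order was reversed, since its mean changed by -6.80 from p14 to p17 in nOIR mice and by 24.7 in OIR mice. Between OIR p17 and OIR p14 mice, 3 genes were higher, against 4.11% of all genes, and 1 was lower, against 1.81%. The higher ones were Lig1 (log2FC 0.44, adjusted p = 0.00814), Tk1 (0.73, adjusted p = 0.0164) and Pclaf (0.72, adjusted p = 0.0445). Pole, the catalytic subunit of the leading-strand polymerase, was lower, from 92.1, 149.7 and 180.1 normalized reads (lowest, median, highest) in OIR p14 to 40.4, 69.0 and 117 in OIR p17, with a log2FC of -1.02 (adjusted p = 0.039). The call of Pole was lost for 10 mice left out singly and that of Pclaf for 15, of the 26. These comparisons and those with nOIR mice share the OIR mice.

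The 17 genes called higher at neither age are Orc1, Mcm7, Mcm10, Cdc45, Gins3, Gins4, Pola1, Pole, Pcna, Rfc3, Rfc4, Fen1, Rrm1, Tyms, Ccne1, Ccne2 and Chaf1a. Their log2FC values ran from -0.24 to 0.75 at p14 and from -0.41 to 0.95 at p17, and their 95% confidence intervals lay within -0.69 to 1.53 and -0.69 to 1.68. The fold changes were also set beside the control level. Genes were split at a mean of 100 normalized reads in nOIR p14 mice. These mice do not enter the p17 fold changes, but through the shared fit they enter the spread behind the calls. Below that limit 12 of 16 genes, and at or above it 5 of 19, were called higher at p17. Median log2FC values were 1.13 and 0.18. Over all genes tested, 6.58% below and 8.30% at or above the same limit were higher, with medians of 0.05 and -0.05. Across the 35 genes the Spearman correlation between that control mean and the p17 log2FC was -0.65, given as a description, since the genes share libraries and are not replicates. In normalized reads, the median difference between OIR and nOIR p17 means was 61.4 below and 48.9 at or above the limit. At p14, split by the nOIR p17 mean, it was 40.8 below and 55.8 at or above. Per kilobase of merged exon, Gins4, Pcna, Rfc4 and Mcm4 were the 4 highest genes in each of the 4 groups. This order depends on the annotated lengths, 1349 bases for Gins4 and 11012 for Rrm1. In normalized reads, Rrm1 had the highest mean of the list (1216). At the other end, Cdc6 was the lowest in nOIR p14, OIR p14 and nOIR p17 mice, at 2.05, 2.55 and 0.752 normalized reads per kilobase, and Pole in OIR p17 mice, at 6.69.

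The list was also summed up mouse by mouse. The median over the 35 genes of a mouse's log2 difference from its control mean ran from -0.09 to 0.11 in nOIR p14 mice, from 0.15 to 0.53 in OIR p14, from -0.04 to 0.11 in nOIR p17 and from 0.42 to 0.71 in OIR p17. OIR and nOIR mice did not overlap in this value at either age. OIR p14 mouse S3 was the lowest of its group, and OIR p17 mouse S7 the highest. In an OIR p14 mouse 23 to 29 of the 35 genes exceeded the control mean, and in an OIR p17 mouse 26 to 32. The coefficient of variation within a group had a median of 20.7%, 20.6%, 18.6% and 19.3% over the genes (both p14 groups, nOIR first, then both p17 groups). It was highest for Cdc6 in nOIR p17 mice, at 185%, where 4 of the 6 values were 0.

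Other genes of the same pathway were listed from textbook roles, 77 in all, of which 76 could be tested. At p14, 7 were higher and 0 lower, and at p17 20 were higher and 1 lower, with median log2FC values of 0.15 and 0.12. Of all genes tested, 3.18% were higher and 2.91% lower at p14, and 7.39% higher and 5.12% lower at p17. Among D-type cyclins, which open the G1/S step, Ccnd2 had 143, 185 and 249 normalized reads (lowest, median, highest) in nOIR p14, 313, 539 and 673 in OIR p14, 120.0, 144 and 205 in nOIR p17 and 535, 869 and 1126 in OIR p17, without overlap at either age. Its log2FC was 1.38 at p14 (adjusted p = 3.05e-05) and 2.44 at p17 (adjusted p = 8.14e-11), and for Ccnd1 it was 0.76 (adjusted p = 0.00215) and 1.35 (adjusted p = 5.73e-08). Of 6 inhibitors of the cyclin-dependent kinases tested, 1 was higher at p14 and 3 at p17, with log2FC values for Cdkn1a, encoding p21, of 1.41 at p14 (adjusted p = 9.8e-05) and 2.11 at p17 (adjusted p = 9.33e-09), and for Cdkn2b of 1.65 at p17 (adjusted p = 9.35e-05). Cdk2, the kinase that binds cyclin E, had a log2FC of 1.22 at p17 (adjusted p = 3.7e-05). E2f8, a repressor of E2F targets, had no read in any nOIR p17 mouse and 1.98, 28.9 and 51.3 in OIR p17 mice. Its mean there was at least 54.5-fold higher, against a floor of 3 reads over the control group. The other genes called at p14 were E2f6 (1.22, adjusted p = 0.000202), another E2F repressor, the histone chaperone gene Asf1b (1.28, adjusted p = 0.00261), Mcm8 (0.46, adjusted p = 0.0303) and Pole3 (0.38, adjusted p = 0.0343). The gene lower at p17 was Rpa1, which coats single-stranded DNA, with a log2FC of -0.30 (adjusted p = 0.014). By role, 12 of the 20 other G1/S regulators were higher at p17, as were 1 of 16 other licensing and firing genes and 1 of 21 other fork genes, where 7.39% of all genes were, and the difference between roles was not tested.

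Genes of mitosis and of several cell types were counted beside them, where 3.18% of all genes were higher and 2.91% lower at p14, and 7.39% higher and 5.12% lower at p17. Of 10 mitosis genes, 9 were higher at p14 and 10 at p17, and their summed level ran from 405 to 619 normalized reads in nOIR p14, 910 to 1354 in OIR p14, 304 to 438 in nOIR p17 and 1416 to 2103 in OIR p17. Mki67, a marker of cycling cells, had 0, 4.43 and 23.3 normalized reads in nOIR p14, 33.5, 86.8 and 168 in OIR p14, 0, 0 and 5.57 in nOIR p17 and 106, 179 and 286 in OIR p17, without overlap at either age. Top2a, which untangles replicated DNA, had log2FC values of 3.52 (adjusted p = 3.98e-06) and 6.56 (adjusted p = 2.32e-12), above every gene of the replication list. For the cells of vessels the ages differed. At p14, 1 of 10 endothelial genes was higher (Pecam1) and 1 lower (Cldn5), 3 of 6 pericyte genes were lower (Rgs5, Kcnj8 and Abcc9), and 2 of 8 microglia and macrophage genes were higher (C1qa and Cd68). At p17, 8 of 10 endothelial, 6 of 6 pericyte, 6 of 8 microglia and macrophage and 5 of 5 red blood cell genes were higher. The summed endothelial level ran from 10053 to 13131 in nOIR p14, 8027 to 13083 in OIR p14, 8175 to 9974 in nOIR p17 and 11895 to 15557 in OIR p17. Summed pericyte levels ran from 3483 to 4027, 1497 to 3230, 2936 to 3666 and 8703 to 12163 in the same order, and those of microglia and macrophages from 1272 to 1711, 1440 to 2183, 1043 to 1236 and 2052 to 3602. Astrocyte genes (Gfap, Pax2 and Pdgfra) were higher for 2 of 3 at p14 and 3 of 3 at p17. Of retinal progenitor genes, Nes was higher at both ages, and Fgf15 had 3 reads in all 8 OIR p17 mice together and 0 in nOIR p17. Genes of the retina's own cells fell or did not pass the test. Müller glia genes were lower for 4 of 6 at both ages, and at p14 and p17 the lower genes numbered 1 and 5 of 5 for bipolar cells, 1 and 2 of 5 for rods, 1 and 0 of 4 for cones, and 1 and 1 of 4 each for amacrine and ganglion cells. No lens or pigment epithelium gene was called at either age by limma, although summed lens levels ran up to 17388 in nOIR p14 and 30047 in OIR p17 mice. The part of any of these cell types in the values of the replication genes was not tested.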

How the data were processed

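The deposited table gives normalized reads per gene (unit: signal) for 27 mice. According to the labels and the study's methods, the authors aligned single reads of SMARTer and Nextera XT libraries with RNA STAR 2.7.8a, counted them per gene with featureCounts 2.0.1 on Gencode M28 and divided them by DESeq2 1.34 size factors. Multiplying each mouse by 1 factor returned whole reads for 100% of values (tolerance 0.001). The deposited columns of the authors' own log2 fold changes and p-values were not used. Here log2(normalized reads + 1) of genes with a mean of at least 1 (27137 of 40129) was fitted with limma 3.58.1 (R 4.3.3, eBayes with trend), 4 groups in one fit, without nOIR p14 mouse S4. The added read lowers fold changes of low genes, while mice at 0 can raise them above a ratio of group means. Each gene was tested two-sided with Benjamini-Hochberg adjustment, threshold 0.05. Single values used exact two-sided permutation over mice. Alternatives included edgeR 4.0.16 and DESeq2 1.42.0 on recovered reads, other filters, pseudocount, scalings, and leaving out mice. On simulated data, limma recovered 100% of 200 genes changed by 2 on the log2 scale for OIR against nOIR at p17, with 13 false calls among 27137 genes. The simulation took mice as independent, gave all genes the same dispersion and changed only genes with a mean of at least 10. It therefore does not show how smaller changes, more variable genes or shared litters would fare.

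The 35 genes and the marker and pathway lists were chosen with earlier results of these data known. Values of each mouse group, fold change and adjusted p were given, in each role, for the 2 genes with the largest absolute log2 fold change at p17 and a mean of at least 10 normalized reads, and for any gene called at p14, called lower, or differing between ages. Of other pathway genes, the 6 with the smallest adjusted p at p17 and those called at p14 were named. Mcm2, Mcm4, Mcm7, Gins4, Pcna, Rrm1, Chaf1a, Pole, Rpa1, Mki67 and Top2a were given more room after their values were seen. Promoter windows were read from RefSeq tables (GRCm38.p6), and levels per kilobase use merged exon lengths from the Gencode annotation of GRCm38, an earlier release than the authors' own. Results of some marker genes are not reported here.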

Additional observations from a re-analysis of the deposited data

Results flagged for a closer look

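Gaps between 1 mouse and the rest of its group were screened with Dixon's 95% critical values in 140 sets of values (35 genes in 4 groups), and 6 stood apart, 4.29% where chance gives about 5%. Cdc6 had 18.0 normalized reads in nOIR p17 mouse S1, where the next mouse had 5.57. In nOIR p14 mouse S3, Rrm2 had 54.6 normalized reads, with the next at 26.5. OIR p14 mouse S1 was the highest of its group for Mcm10, with 102 normalized reads against 47.9 in the next mouse, and for Tyms, with 394 against 311. Gins3 had 239.6 normalized reads in OIR p17 mouse S7, where the next mouse had 158.0. Rfc4 was low in nOIR p17 mouse S1, with 211 normalized reads where the next had 347.

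The effect of OIR differed between p17 and p14 by limma for 3 genes, with differences on the log2 scale of 3.69 for Cdc6, 0.70 for Lig1 and 1.94 for E2f2 (adjusted p = 0.0108, 0.00952 and 0.0465). In OIR mice, Cdc6 lay above all controls in 8 of 8 mice at p17, and so did Lig1, whereas E2f2 overlapped its controls at both ages.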

How the results depend on the processing

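Of the calls between OIR and nOIR mice, 10 of 11 at p14 and 13 of 18 at p17 held in every alternative, as did 1 of 3 differences between ages (Lig1) and 0 of 4 calls between OIR p17 and OIR p14. Leaving out 1 mouse gave 10 to 12 genes higher at p14 and 15 to 18 at p17, 0 to 1 lower at p17, 2 to 3 differences between ages, 0 to 1 lower in nOIR p17 than nOIR p14, and 2 to 4 higher and 0 to 1 lower between OIR ages. The 1 gene lower at p17 (Ccne1) became 0 with an adjusted p under 0.01, the compared groups only, edgeR, no filter on low values, the replicate block, the same total per mouse, mouse S4 included, and without the 4 mice above 5000 reads of Cryaa. The 3 differences between ages became 1 with an adjusted p under 0.01 and without those 4 mice. No gene was lower in nOIR p17 than in nOIR p14 mice, but 1 was with a pseudocount of 0.1. Between OIR ages, the 3 genes higher became 5 with DESeq2 and 1 with an adjusted p under 0.01. The 1 gene lower there became 2 with DESeq2 and the same total, and 0 with an adjusted p under 0.01, log2 Cryaa as covariate, no filter, the replicate block and without those 4 mice. The cause of these shifts was not tested. The mouse numbers did not pair the groups, since correlations of same-numbered mice ran from -0.11 to 0.06 at p14 and from -0.03 to 0.14 at p17, and 2 of 5 and 1 of 6 mice correlated best with their own number. With the replicate block, 10 genes were higher at p14, and 16 higher and 0 lower at p17. Depth limits Cdc6 most, with 26 reads in all nOIR p17 mice together.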

Other observations

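The nOIR p14 mouse S4, which entered no comparison, had a median log2 difference from the mean of the other nOIR p14 mice of 0.02 over the 35 genes, within the range of those mice (-0.09 to 0.11), and 19 of the 35 genes lay above that mean. With S4 included, the counts of genes called higher were 11 at p14 and 17 at p17.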
